A study of Mus musculus with 12 samples.

Results

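Genes that mark tissue-resident macrophages were followed through the life of the mouse choroid plexus, the secretory tissue of the brain ventricles that makes cerebrospinal fluid. The 10 genes, Csf1r, Cx3cr1, Aif1, Mrc1, Cd163, Lyve1, F13a1, C1qa, C1qb and C1qc, were taken by symbol from a table of 52459 gene symbols, and all 10 were found. Whole choroid plexus of B6 mice was profiled by RNA-seq at 4 ages with 3 libraries each: an embryonic age (E12.5), postnatal day 0 (P0), postnatal day 14 (P14) and 6 months (A6m). The labels name no treatment, allele or transgene for these animals, and call the libraries of an age independent specimens. Sex, ventricle, pooling of animals and sequencing batch are not given in the sources used here. The mutant tissue named in the title of the series was not analysed. Values are TPM, an abundance corrected for transcript length and scaled to the same sum in every library.

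Macrophages of the choroid plexus sit in its stroma and on its apical surface, between the fenestrated vessels and the ventricle. Csf1r is the receptor through which CSF1 and IL-34 keep macrophages alive, Cx3cr1 is the receptor of fractalkine (Cx3cl1), and Aif1 encodes IBA1, an actin-binding protein of macrophages and microglia. Mrc1 (CD206), Cd163 and Lyve1 are endocytic surface receptors for mannosylated ligands, for haemoglobin bound to haptoglobin, and for hyaluronan, while F13a1 encodes the A chain of coagulation factor XIII. C1qa, C1qb and C1qc encode the chains of C1q, the molecule that starts the classical complement pathway and that tissue macrophages make in large part. In bulk tissue, fewer macrophages and less RNA per macrophage cannot be told apart.

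At every age the markers used most widely for macrophages were present in all 3 libraries: Csf1r lay between 2.6 and 33.1 TPM and Cx3cr1 between 1.83 and 14.3 TPM over the 12 libraries. Cd163 reached 1 TPM only in the 3 P0 libraries, and it therefore entered the tests (1 TPM in at least 3 libraries) only through the age at which it was highest. Lyve1 reached 1 TPM only at E12.5 and P0, and F13a1 in no A6m library. The tissue label was checked on 6 markers of choroid plexus epithelium (Ttr, Folr1, Aqp1, Otx2, Kcnj13 and Clic6), whose summed TPM was 12400 to 23000 at E12.5, 145000 to 147000 at P0, 155000 to 172000 at P14 and 141000 to 150000 at A6m.

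The 12 libraries differed in composition as well as age. A size factor that centres the ratios of genes between libraries (median-of-ratios scaling, below simply scaling) was 1.23 to 1.57 at E12.5, 1.13 to 1.21 at P0, 0.778 to 0.837 at P14 and 0.743 to 0.815 at A6m, so that the deposited TPM of a typical gene drifted downward with age. The part of this drift in each difference was measured by repeating the tests after scaling. In E12.5 replicate 1 a single feature, Mir6236, held 9.31% of all TPM. Adult libraries held 148 to 155 TPM of Xist, against no more than 0.808 TPM at P0 and P14, where the Y-linked Ddx3y stood at 80.1 to 117 TPM, and the E12.5 libraries were mixed. In comparisons of A6m with P0 or P14, age and the presence of Xist or Y-linked transcripts therefore cannot be told apart. P14 against P0 held no such difference.

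In GENCODE M21 on GRCm38 the 3 C1q genes lie side by side on the minus strand of chromosome 4, in the order C1qb (chr4:136880129-136886187), C1qc (chr4:136889804-136893065) and C1qa (chr4:136895917-136898803). They span 18675 bp, with gaps of 3616 and 2851 bp and no other annotated gene between them. The others lie elsewhere: Mrc1 at chr2:14229392-14332057, Cd163 at chr6:124304656-124330527, Lyve1 at chr7:110850607-110863239, Cx3cr1 at chr9:119901616-120069879, F13a1 at chr13:36867178-37050244 and Aif1 at chr17:35170991-35176068. Mrc1 and Cd163 are on the plus strand and the other 4 on the minus strand. F13a1 overlaps 2 antisense genes and the annotated span of Cx3cr1 overlaps 9 genes, and whether the quantification used strand is not given in the sources used here.

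Promoter windows from RefSeq (GRCm38.p6) covered 7 of the 10 genes in 8 windows, F13a1 having 2. The windows were searched on both strands for AGGAAGT, a core that PU.1 (the product of Spi1) and other ETS factors bind, and for TGCTGA, a part of the site of MAF factors. AGGAAGT was found in 4 of the 8 windows and in 9.35% of 32851 promoter windows of the same length. TGCTGA was found in 1 of the 8, that of C1qb, and in 19.5% of all windows. The 250 bases before the start site of the 4 genes with a match follow, because C1qb and C1qc are neighbours with the most similar profiles of the set and Mrc1 and F13a1 are the most abundant members at E12.5. Each is written 5′ to 3′ along its gene, with the matches in capitals (ACTTCCT is AGGAAGT read on the other strand).
C1qb chr4:136886201-136886450 (minus strand): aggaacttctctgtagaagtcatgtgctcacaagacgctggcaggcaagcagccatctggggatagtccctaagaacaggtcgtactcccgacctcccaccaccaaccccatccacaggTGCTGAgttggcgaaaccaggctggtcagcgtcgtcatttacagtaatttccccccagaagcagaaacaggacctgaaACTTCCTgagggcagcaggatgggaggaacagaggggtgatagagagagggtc
C1qc chr4:136892915-136893164 (minus strand): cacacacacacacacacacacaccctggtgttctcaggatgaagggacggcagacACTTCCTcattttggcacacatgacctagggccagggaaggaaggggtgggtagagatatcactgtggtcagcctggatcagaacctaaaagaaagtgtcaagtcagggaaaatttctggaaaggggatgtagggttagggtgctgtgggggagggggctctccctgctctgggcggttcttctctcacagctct
Mrc1 chr2:14229164-14229413 (plus strand): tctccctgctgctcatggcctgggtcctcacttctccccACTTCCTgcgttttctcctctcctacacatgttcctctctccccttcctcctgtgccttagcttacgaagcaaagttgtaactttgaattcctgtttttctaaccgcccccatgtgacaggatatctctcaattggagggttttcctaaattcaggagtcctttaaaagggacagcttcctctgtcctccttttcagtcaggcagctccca
F13a1 chr13:37049214-37049463 (minus strand): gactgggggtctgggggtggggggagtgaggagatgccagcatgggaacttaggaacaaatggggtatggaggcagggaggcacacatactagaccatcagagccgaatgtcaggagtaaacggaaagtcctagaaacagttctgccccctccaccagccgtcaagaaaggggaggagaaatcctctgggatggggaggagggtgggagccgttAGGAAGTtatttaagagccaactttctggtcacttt
Counted with the start site as 0, the AGGAAGT matches begin at -53 in C1qb, -195 in C1qc, -211 in Mrc1 and -36 in F13a1, where a second match at 15 lies beyond the printed stretch, and TGCTGA begins at -131 in C1qb. For F13a1 the stretch belongs to the later of its 2 start sites along the gene. A match is a description of letters, and binding was not measured.

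All 10 genes differed among the 4 ages (limma F-test, Benjamini-Hochberg adjusted p from 4.29e-10 for F13a1 to 0.000352 for Aif1), as did 85.1% of the 17422 genes tested. Their summed TPM was 196 to 253 at E12.5, 120 to 139 at P0, 48.4 to 51.2 at P14 and 24 to 40.4 at A6m, without overlap between ages. In TPM as deposited, Csf1r, Cx3cr1, Mrc1, Lyve1 and F13a1 were lower at each later age with no overlap between the libraries of neighbouring ages. Of tested genes 11.5% had this pattern, which was not counted after scaling. For Lyve1 the last step was not called (limma adjusted p = 0.297), and its P14 and A6m libraries came as close as 0.171 and 0.164 TPM. The C1q genes and Aif1 were not called between E12.5 and P0, and Cd163 was highest at P0.

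Csf1r (chr18:61100598-61132149, plus strand, overlapping Hmgxb3 on the other strand) encodes the receptor on which macrophage survival depends. It was 27.2, 33.1 and 26.9 TPM at E12.5, 16.3, 16.2 and 14 at P0, 6.96, 7.37 and 6.71 at P14, and 3.32, 2.6 and 4.05 at A6m. The libraries of an age lay close together and no library overlapped with one of another age. Mean levels were 29.1 ± 3.5, 15.5 ± 1.28, 7.01 ± 0.33 and 3.32 ± 0.727 TPM (SD, n = 3 each), so that each step lowered Csf1r by a similar ratio: 1.87-fold to P0, 2.21-fold to P14 and 2.11-fold to A6m. On the log2(TPM + 1) scale, on which every tested difference here is given and on which changes of low genes are understated, the steps were -0.86 ± 0.13 (SE), -1.04 ± 0.13 and -0.90 ± 0.13 (limma adjusted p = 0.000155, 8.46e-05 and 0.000639). After scaling they were -0.58, -0.57 and -0.89 and all 3 were still called.

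Cx3cr1, the fractalkine receptor, was 11.5, 14.3 and 12.2 TPM at E12.5, 5.2, 7.01 and 5.77 at P0, 3.62, 3.74 and 3.23 at P14, and 2.18, 1.83 and 2.61 at A6m. The ages again did not overlap, but the later steps were smaller than those of Csf1r in the same libraries. The log2 differences were -0.97 ± 0.13 to P0, -0.62 ± 0.13 to P14 and -0.51 ± 0.13 to A6m (limma adjusted p = 7.62e-05, 0.00231 and 0.0198). The step to P14 was lost after scaling (-0.20, adjusted p = 0.221). The step to A6m was lost when P14 replicate 1 or 2 or A6m replicate 1 or 2 was left out (limma adjusted p = 0.0624, 0.0672, 0.0572 and 0.0765).

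Aif1, which encodes IBA1, was the least abundant gene of the set at E12.5 apart from Cd163, with 9.02, 6.79 and 6.75 TPM. It stood at 6.22, 3.93 and 5.36 TPM at P0, 2.74, 3.17 and 2.73 at P14, and 1.76, 1.67 and 3.56 at A6m. The P0 libraries lay below all E12.5 libraries by a narrow margin, and A6m replicate 3 lay above every P14 library. From E12.5 to A6m it fell by 1.39 on the log2 scale (3.23-fold, limma adjusted p = 0.000106), while the difference from E12.5 to P0 was -0.47 (adjusted p = 0.0766) and from P14 to A6m -0.26 (adjusted p = 0.452). Without A6m replicate 3 the difference to P0 was called (adjusted p = 0.0257). The step from P0 to P14 was -0.65 (adjusted p = 0.0222), but it was lost after scaling (-0.25, adjusted p = 0.453) and without P0 replicate 1 or 3 or P14 replicate 1 or 3 (adjusted p = 0.0821, 0.0592, 0.0581 and 0.059).

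**Figure D1:**
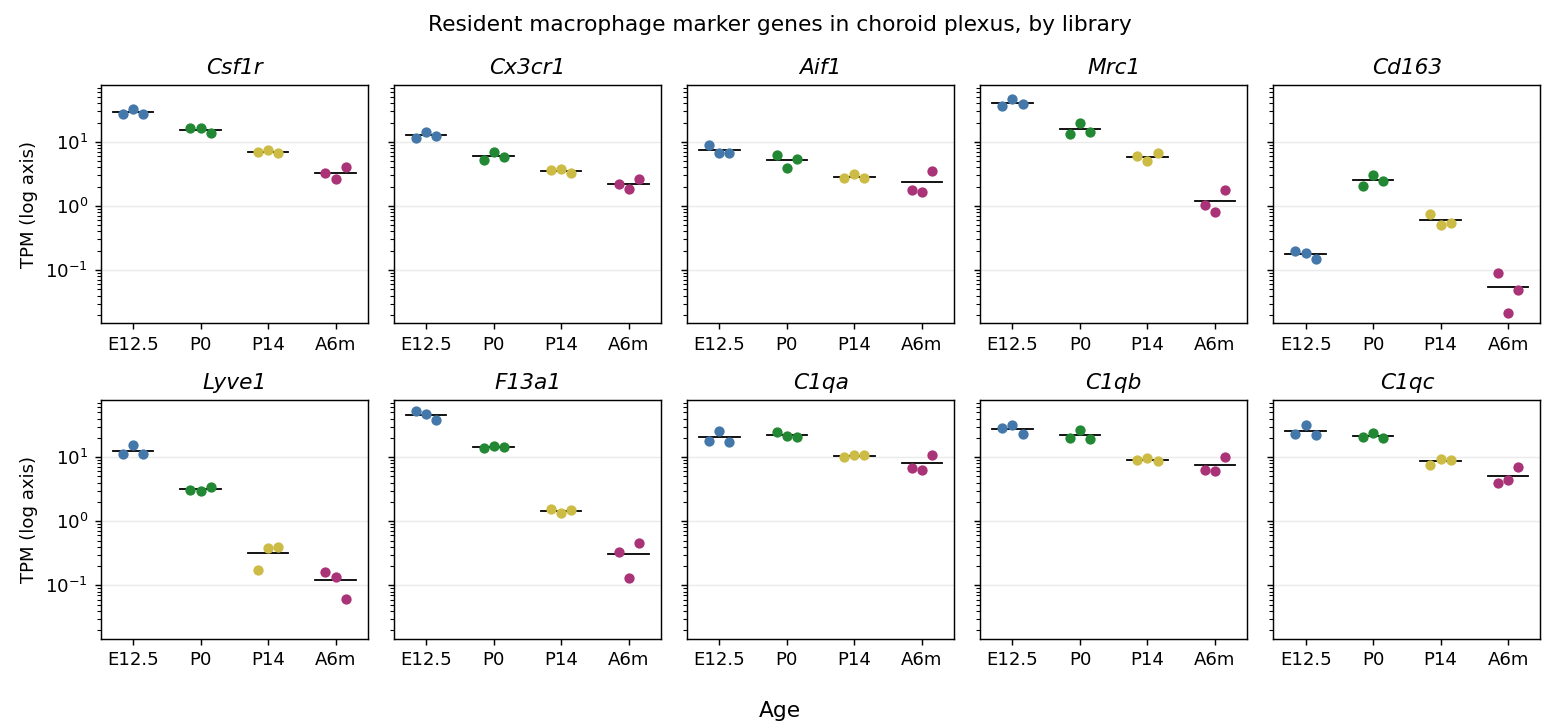
TPM of the 10 macrophage marker genes in each of the 12 libraries (points, log axis) by age, with the mean of the 3 libraries of an age as a line. As deposited, Csf1r, Cx3cr1, Mrc1, Lyve1 and F13a1 step down at each age without overlap, Lyve1 by a narrow margin from P14 to A6m. Cd163 has its highest point at P0, and the C1q genes and Aif1 lie close together at E12.5 and P0.

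Mrc1, the mannose receptor CD206, was 36, 46.1 and 38.4 TPM at E12.5, 13.3, 19.8 and 14.3 at P0, 6.05, 4.98 and 6.72 at P14, and 1.04, 0.815 and 1.79 at A6m. It fell at every step without overlap, by 1.31 ± 0.19, 1.27 ± 0.19 and 1.66 ± 0.19 on the log2 scale (limma adjusted p = 0.000121, 0.000261 and 0.000139). Over the whole span its mean went from 40.2 ± 5.26 to 1.21 ± 0.511 TPM (SD, n = 3 each), a 33.1-fold fall (log2 difference -4.23, adjusted p = 4.68e-09). After scaling that difference was -3.55, and all 3 steps were still called.

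F13a1 was the most abundant of the 10 genes at E12.5 by its mean, with 52.5, 47.4 and 37.5 TPM, a range that overlapped with that of Mrc1. It was 13.8, 14.7 and 14.5 TPM at P0, 1.55, 1.35 and 1.52 at P14, and 0.337, 0.129 and 0.452 at A6m. Its steepest step lay between P0 and P14, where it fell 9.72-fold (log2 difference -2.63 ± 0.13, limma adjusted p = 4.78e-07), and from E12.5 to A6m it fell 149.5-fold (log2 difference -5.16, adjusted p = 1.26e-10). Megakaryocytes, platelets and monocytes also make F13a1. The summed TPM of 9 megakaryocyte and platelet markers was 144 to 192 at E12.5, 6.43 to 10.9 at P0, 2.77 to 5.47 at P14 and 2.87 to 4.04 at A6m, and all 9, led by Ppbp (log2 difference -4.93), fell from E12.5 to P0. The 7 monocyte markers summed to 102 to 139, 40.4 to 51.5, 6.33 to 14 and 2.67 to 7.44 TPM in the same order. Among them Vcan, also a matrix gene, had a mean of 117.1 TPM at E12.5 and 5.78 at P0. Plac8 rose at that step, from a mean of 3.32 to 31.9 TPM (log2 difference 3.03). Of the 6 monocyte markers tested, 4 were called higher and 1 lower from E12.5 to P0, as were 18.6% and 43.7% of tested genes. Ccr2, Hp and Ly6c2, counted as higher, would not have passed the filter without P0, so their rise was built into their being tested. The part of these cells in the fall of F13a1 was not tested.

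Lyve1, the hyaluronan receptor shared by a subset of border macrophages and lymphatic vessels, was 11.1, 15.5 and 11.3 TPM at E12.5, 3.05, 2.95 and 3.4 at P0, 0.171, 0.381 and 0.391 at P14, and 0.164, 0.134 and 0.0604 at A6m. It fell 4.03-fold to P0 (log2 difference -1.71 ± 0.14, limma adjusted p = 1.57e-06) and 9.98-fold from P0 to P14 (-1.66 ± 0.14, adjusted p = 7.46e-06). From P14 on it lay below 1 TPM in all 6 libraries, and the last step was -0.23 (adjusted p = 0.297). That step was called with a pseudocount of 0.1 in place of 1 (-0.90, adjusted p = 0.0458). Flt4, a receptor of lymphatic endothelium, was 5.46, 5.08 and 4.65 TPM at E12.5, 0.973, 1.07 and 0.741 at P0, and no more than 0.369 later. The lymphatic regulator Prox1 was 0.588, 1.63 and 0.928 TPM at E12.5. Pdpn (podoplanin), the most abundant of the 5 lymphatic genes listed, went another way than Lyve1 at birth: it was 122, 143 and 148 TPM at E12.5, 244, 227 and 236 at P0, 93.7, 97.9 and 97.4 at P14, and 88.1, 88.7 and 98 at A6m, and rose to P0 (log2 difference 0.78, adjusted p = 6.9e-06). The 5 genes summed to 142 to 175, 234 to 254, 95.4 to 103 and 89.9 to 99 TPM at the 4 ages. The summed TPM of 7 markers of blood vessel endothelium fell beside Lyve1, from 323 to 366 at E12.5 to 192 to 255, 77 to 102 and 21.6 to 34 at the later ages, and the part of endothelium in the Lyve1 values was not tested.

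Cd163, the haemoglobin scavenger receptor, did not follow the other endocytic receptors. It was 0.198, 0.185 and 0.15 TPM at E12.5, 2.03, 3.1 and 2.46 at P0, 0.761, 0.513 and 0.548 at P14, and 0.0892, 0.0217 and 0.0496 at A6m. Every P0 library was above every library of the other ages, and every P14 library was above those of E12.5 and A6m. It rose 14.2-fold from E12.5 to P0 (log2 difference 1.57 ± 0.13, limma adjusted p = 2.34e-06), while Mrc1, Lyve1 and F13a1 fell in the same libraries. It fell 4.16-fold to P14 (log2 difference -1.13, adjusted p = 6.75e-05) and 11.4-fold from P14 to A6m (-0.61, adjusted p = 0.00868), and scaling kept each of these 3 calls (log2 differences 1.48, -0.86 and -0.71). Since the gene passed the filter only through P0, a difference between P0 and the other ages was built into its being tested. At E12.5 and A6m, both far below 1 TPM, the difference was -0.16 (adjusted p = 0.294). It was called with a pseudocount of 0.1 (-0.88, adjusted p = 0.0311), and quantile normalization turned its sign (0.20).

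C1qa, C1qb and C1qc, whose products assemble into one molecule, lay close to each other at E12.5 and P0 and were lower from P14 on. C1qa was 17.8, 26 and 17.2 TPM at E12.5, 24.8, 21.6 and 21 at P0, 10, 10.9 and 10.7 at P14, and 6.88, 6.23 and 10.8 at A6m. C1qb was 28.9, 31.8 and 23.3 TPM at E12.5, 20.2, 26.6 and 19.5 at P0, 8.92, 9.64 and 8.59 at P14, and 6.2, 6.19 and 9.92 at A6m. C1qc was 23.4, 31.9 and 21.8 TPM at E12.5, 20.3, 23.6 and 19.8 at P0, 7.62, 9.22 and 9.03 at P14, and 3.97, 4.35 and 7.1 at A6m. For each chain the E12.5 and P0 libraries overlapped, and the P14 libraries lay below both. At A6m replicates 1 and 2 were close together and replicate 3 lay above them.

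Between E12.5 and P0 none of the 3 C1q genes was called: the log2 differences were 0.16 ± 0.19 for C1qa, -0.33 ± 0.18 for C1qb and -0.25 ± 0.19 for C1qc (limma adjusted p = 0.491, 0.131 and 0.273). Scaling moved them to 0.42, -0.06 and 0.02, still uncalled, while quantile normalization brought C1qa past the threshold by a narrow margin (0.47, adjusted p = 0.0499). All 3 fell from P0 to P14, by 1.02, 1.19 and 1.21 on the log2 scale (adjusted p = 0.000991, 0.000277 and 0.000352), and each of these calls was kept after scaling. Between P14 and A6m C1qc was called (-0.68, adjusted p = 0.0266), and C1qa (-0.39, adjusted p = 0.179) and C1qb (-0.28, adjusted p = 0.323) were not. The C1qc call was lost without P14 replicate 2 or 3 or A6m replicate 1 or 2 (adjusted p = 0.0838, 0.0815, 0.104 and 0.0936), and without A6m replicate 3 C1qa was called (-0.61, adjusted p = 0.0306). From E12.5 to A6m they fell 2.54-fold, 3.76-fold and 5-fold (log2 differences -1.26, -1.80 and -2.14), against 8.75-fold for Csf1r.

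The order of the levels within an age turned over. At E12.5 F13a1 (45.8 ± 7.62 TPM) and Mrc1 (40.2 ± 5.26) stood above Csf1r (29.1 ± 3.5), C1qb (28 ± 4.31), C1qc (25.7 ± 5.42) and C1qa (20.3 ± 4.9), of which each overlapped with the next. Cx3cr1 (12.7 ± 1.48) and Lyve1 (12.6 ± 2.45) did not differ beyond their spread. At P0 C1qa, C1qb and C1qc stood at 22.5, 22.1 and 21.2 TPM, above Mrc1, Csf1r and F13a1 at 15.8, 15.5 and 14.3, although the highest Mrc1 library lay above the lowest C1qb library. At A6m C1qa (7.98 ± 2.49), C1qb (7.44 ± 2.15) and C1qc (5.14 ± 1.71) led with overlapping ranges. Csf1r (3.32 ± 0.727), Aif1 (2.33 ± 1.07) and Cx3cr1 (2.2 ± 0.391) followed, also overlapping, with the highest Csf1r library (4.05) just above the lowest C1qc library (3.97), and Mrc1, F13a1, Lyve1 and Cd163 were the lowest 4.

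Counted by comparison, 5 of the 10 genes fell (Csf1r, Cx3cr1, Mrc1, Lyve1 and F13a1) and 1 rose (Cd163) from E12.5 to P0, where 43.7% of all tested genes were called lower and 18.6% higher. Cd163 was tested only through its P0 values, so its differences from that age were built in. From P0 to P14 all 10 fell, against a background of 53.5% called lower and 5.33% higher. From P14 to A6m 6 fell (Csf1r, Cx3cr1, Mrc1, Cd163, F13a1 and C1qc) and none rose, where 12.1% of tested genes were called lower and 8.78% higher. From E12.5 to P14 9 fell and Cd163 rose (backgrounds 62.1% and 13.4%), from P0 to A6m all 10 fell (54.6% lower, 9.78% higher), and over the whole span from E12.5 to A6m 9 fell (62% lower, 15.2% higher). The share of falling genes in the background was thus over 50% in 4 of the 6 comparisons.

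Their median log2 difference was -0.67 at the step to P0 (all tested genes: -0.27), -1.16 at the step to P14 (-0.41), -0.56 at the step to A6m (-0.04) and -2.12 over the whole span (-0.71). After scaling the medians were -0.40, -0.72, -0.57 and -1.37, and those of all genes were -0.02, 0.00, 0.00 and -0.01. With scaling 5, 8, 6 and 9 of the 10 were called lower in these comparisons, against 31%, 19.8%, 14% and 35.8% of tested genes, and Cd163 was called higher at P0, as were 29% of tested genes. From E12.5 to P14 7 were called lower and Cd163 higher (34.4% and 33.1% of tested genes), and 9 were called lower from P0 to A6m (27.1%). In the first of these, scaling ended the calls of C1qa and Aif1 (adjusted p = 0.615 and 0.118), and in the second that of Aif1 (adjusted p = 0.114). The call of C1qa was also lost when TPM was rescaled without the 10 most abundant genes (adjusted p = 0.0905).

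**Figure D2:**
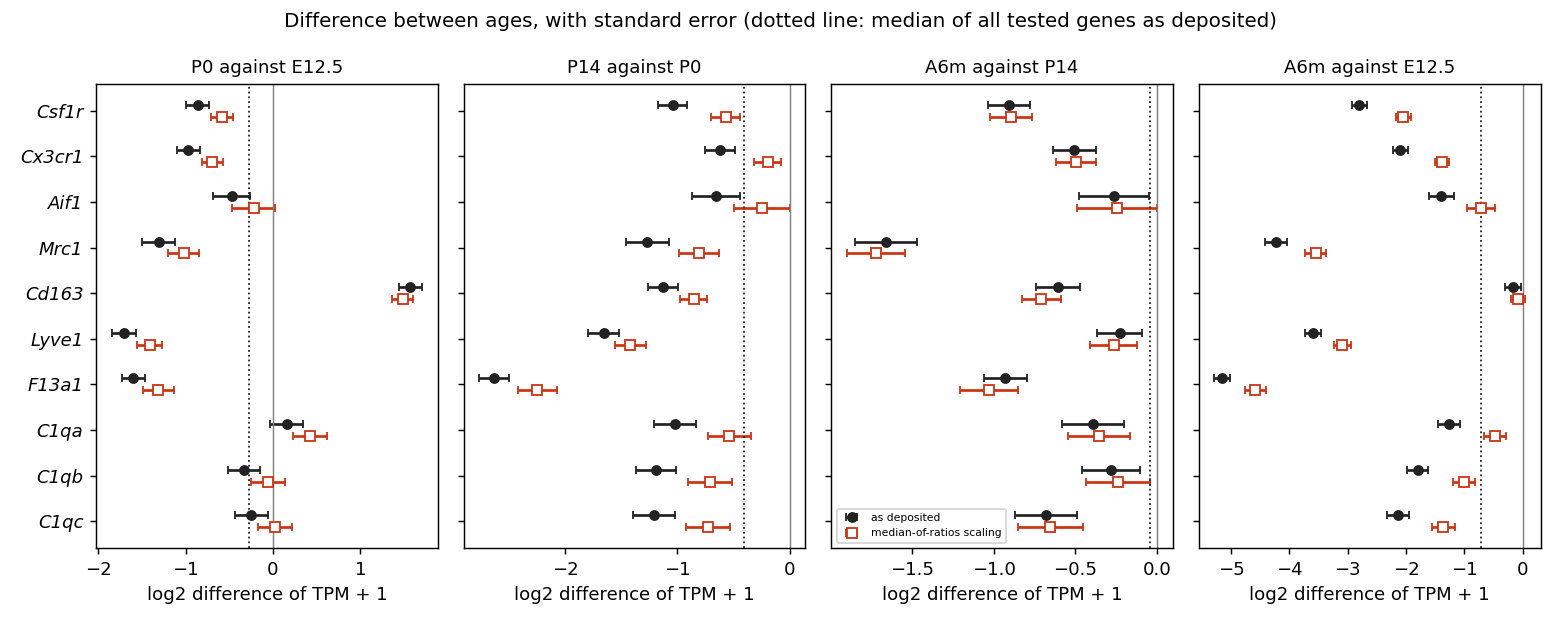
Log2 difference of TPM + 1 between ages for the 10 genes in 4 comparisons, as deposited (filled circles) and after median-of-ratios scaling (open squares), with standard errors. The dotted line is the median of all tested genes as deposited. Cd163, which entered the tests only through its P0 values, is the only one of the 10 with a called rise from E12.5 to P0. F13a1 has the largest fall of the set from E12.5 to A6m (-5.16).

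A ratio to Csf1r within a library shows how the genes moved against each other. The value is log2(TPM + 1) of a gene minus that of Csf1r, and because 1 is added to each TPM, the values of low genes still depend on how a library is scaled. C1qa stood at -0.58, -0.34 and -0.62 at E12.5, 0.58, 0.39 and 0.55 at P0, 0.47, 0.51 and 0.60 at P14, and 0.87, 1.01 and 1.23 at A6m. It was thus below Csf1r in every E12.5 library and above it in every later one. From E12.5 to P0 the ratio rose for C1qa (1.02 ± 0.13, limma adjusted p = 2.71e-05), C1qb (0.53 ± 0.14, adjusted p = 0.0053), C1qc (0.61 ± 0.15, adjusted p = 0.00284) and Cd163 (2.43 ± 0.20, adjusted p = 7.79e-07). It fell for F13a1 (-0.74, adjusted p = 0.00104), Lyve1 (-0.85, adjusted p = 0.00149) and Mrc1 (-0.44, adjusted p = 0.0306). Cx3cr1 (-0.11, adjusted p = 0.487) and Aif1 (0.39, adjusted p = 0.114) were not called. Since Cd163 passed the filter only through P0, its rise to that age was built into its being tested. Against Csf1r most tested genes rose, since Csf1r itself fell: 56.8% were called higher and 8.77% lower from E12.5 to P0.

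The Mrc1 ratio at birth was the least steady of these. It was lost with any 1 of E12.5 replicates 1, 2 and 3 or P0 replicates 1 and 3 left out (adjusted p = 0.0531, 0.0696, 0.064, 0.138 and 0.065) and with a pseudocount of 0.1 (adjusted p = 0.0625). The Aif1 ratio was called without E12.5 replicate 1 or P0 replicate 2 (adjusted p = 0.0444 and 0.0334). With the mean of Csf1r, Adgre1, Fcgr1 and Laptm5 as the reference, C1qa (0.85), C1qb (0.36) and C1qc (0.44) still rose from E12.5 to P0 (adjusted p = 0.000132, 0.0484 and 0.0188), and Mrc1 (-0.61), Lyve1 (-1.01) and F13a1 (-0.90) still fell.

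From P0 to P14 the ratios to Csf1r of the 3 C1q genes were not called (0.02, -0.15 and -0.17, adjusted p = 0.906, 0.357 and 0.319). F13a1 (-1.59) and Lyve1 (-0.62) fell against Csf1r and Cx3cr1 rose (0.42, adjusted p = 0.015), where 2.9% of tested genes were called lower and 64.4% higher. From P14 to A6m Mrc1 fell further against Csf1r (-0.76, adjusted p = 0.00111), where 1.23% of tested genes did, and the ratio of F13a1 was not called (-0.02, adjusted p = 0.882). The ratio of F13a1 was called lower with the reference of 4 genes (-0.57, adjusted p = 0.0212) and with a pseudocount of 0.1 (-0.97, adjusted p = 0.0012). With the reference of 4 genes 2 of the 9 genes, Mrc1 and F13a1, were called at this step, against 6 with Csf1r alone (5 higher, and Mrc1 lower). Against Csf1r alone 83% of all tested genes were called higher at this step. The share of all tested genes called against the 4 genes was not counted at any step.

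Over the whole span from E12.5 to A6m the ratio to Csf1r fell for F13a1 (-2.35), Mrc1 (-1.43) and Lyve1 (-0.79) and rose for Cd163 (2.64), C1qa (1.55), Aif1 (1.42), C1qb (1.01), Cx3cr1 (0.71) and C1qc (0.67), all 9 called, where 3.71% of tested genes were called lower and 89.9% higher. The rises depended on the reference: with the 4 genes C1qa (0.80, adjusted p = 7.5e-05), Aif1 (0.67, adjusted p = 0.00699) and Cd163 (1.90) were still called, and C1qb (0.26), C1qc (-0.08) and Cx3cr1 (-0.04) were not (adjusted p = 0.113, 0.605 and 0.809). Mrc1 (-2.18), Lyve1 (-1.54) and F13a1 (-3.10) fell against either reference. Relative to Csf1r alone 6 rose and 3 fell from E12.5 to P14 (79.4% and 6.27% of tested genes), and 4 rose and 2 fell from P0 to A6m (89.6% and 2.11%). With the reference of 4 genes, for which the share over all tested genes was not counted, 3 rose and 3 fell from E12.5 to P14. From P0 to A6m none rose and 4 fell against that reference: Mrc1 (-1.57), F13a1 (-2.20), Lyve1 (-0.52, adjusted p = 0.023) and C1qc (-0.52, adjusted p = 0.00487). The ratios of Cd163, Lyve1 and F13a1 rest on values below 1 TPM at 1 or more ages and move with the pseudocount. Over the whole span the Lyve1 ratio was -2.77 with a pseudocount of 0.1 and 0.26 with 5, and that of F13a1 was -3.79 with 0.1.

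**Figure D3:**
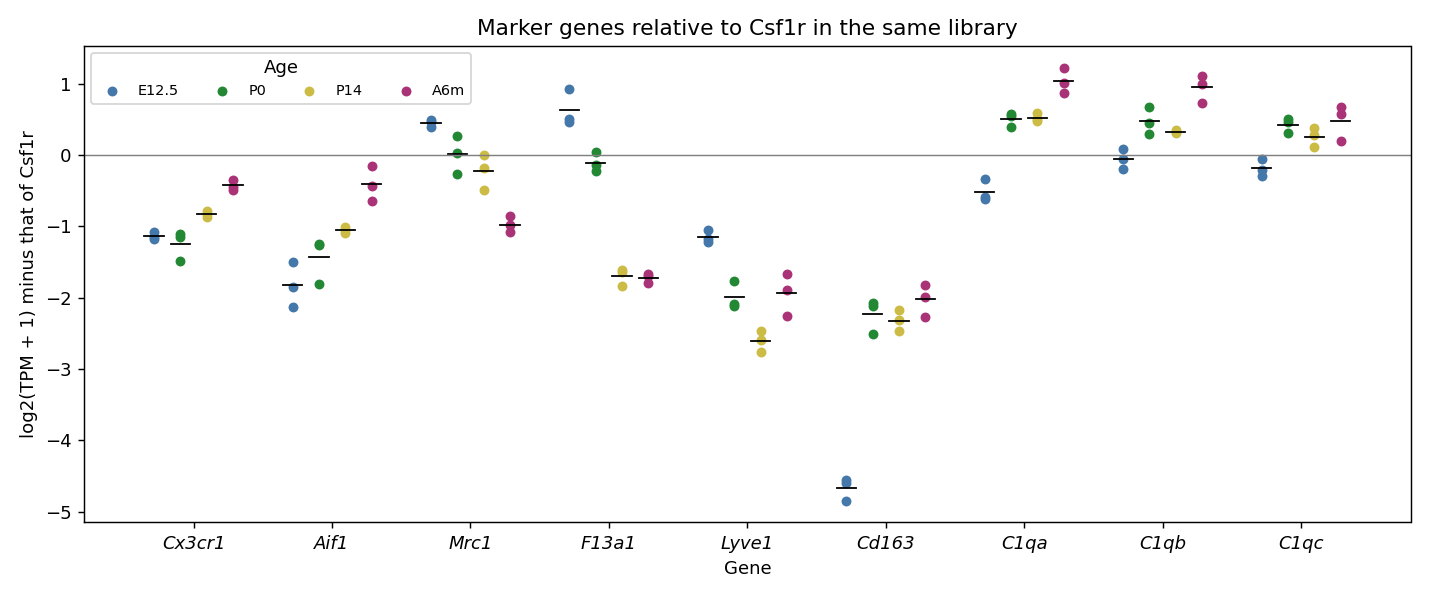
Log2(TPM + 1) of 9 marker genes minus that of Csf1r in the same library, by age (points are libraries, lines are means). The C1q genes move from below or near 0 at E12.5 to above 0 at later ages, Mrc1 and F13a1 move downward, and the points of Cd163 at E12.5 lie apart at the bottom.

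Among the ligands that act on these receptors, the 2 ligands of Csf1r went opposite ways. Csf1 was 12.1, 16.4 and 11.3 TPM at E12.5, 8.5, 10.3 and 9.18 at P0, 5.27, 4.3 and 5 at P14, and 4.72, 3.73 and 5.11 at A6m. Il34 was 0.716, 0.482 and 0.37 TPM at E12.5, 1.24, 1.12 and 1.12 at P0, 2.09, 1.87 and 2.91 at P14, and 1.58, 1.26 and 1.42 at A6m. From E12.5 to A6m Csf1 fell (log2 difference -1.36, limma adjusted p = 6.72e-06) and Il34 rose (0.67, adjusted p = 0.00115), both also after scaling (-0.61 and 1.03). Csf1 nevertheless exceeded Il34 in every library.

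By steps, Csf1 fell from P0 to P14 (-0.82, adjusted p = 0.000899), and its difference from E12.5 to P0 (-0.45, adjusted p = 0.0216) was lost after scaling (-0.19, adjusted p = 0.271) and when E12.5 replicate 2 or P0 replicate 1 or 3 was left out (adjusted p = 0.0861, 0.0749 and 0.0552). Il34 rose at both early steps (0.51 and 0.59, adjusted p = 0.0089 and 0.00454). Between P14 and A6m Csf1 (-0.09, adjusted p = 0.741) and Il34 (-0.43, adjusted p = 0.0543) were not called. Il34 was called lower at that step after scaling (adjusted p = 0.0381) and when E12.5 replicate 1 or 3 or P14 replicate 2 was left out (adjusted p = 0.0349, 0.0483 and 0.0472).

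Cx3cl1, the ligand of Cx3cr1, was 16.4, 21.3 and 17.5 TPM at E12.5 and 31.1, 32.1 and 35.1 at P0 (log2 difference 0.81, limma adjusted p = 3.73e-05). It was 25.7, 23.8 and 22.8 TPM at P14 and 23.6, 20.4 and 21.8 at A6m. The rise at birth, when its receptor fell, was also called after scaling (1.07). The fall from P0 to P14 (-0.43, adjusted p = 0.00394) was not, and its sign turned (0.07, adjusted p = 0.571). Gas6, a ligand of the engulfment receptor Mertk, rose from 53.7 ± 3.23 to 191.6 ± 1.88 TPM at P0 (log2 difference 1.82, adjusted p = 1.03e-08) and stood at 289 ± 17.8 and 271.9 ± 19.2 TPM at P14 and A6m. Pros1, listed beside Gas6, went the other way, from 25.3 ± 1.22 to 11 ± 0.654 TPM at P0 (-1.13, adjusted p = 3.89e-06). Tgfb1 fell from 20.3 ± 2.45 to 5.32 ± 0.466 TPM at P0 (-1.75, adjusted p = 1.27e-06) and to 1.44 ± 0.306 at A6m.

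Genes of signalling in myeloid cells fell early. The list of 8, called the adapters below, holds the adapters Tyrobp and Fcer1g, the receptor Trem2, the kinases Syk and Lyn, and others. All 8 were called lower from E12.5 to P0 and from P0 to P14, and none in either direction from P14 to A6m. Of all tested genes 43.7%, 53.5% and 12.1% were called lower at these steps. With scaling 7, 5 and 0 of the 8 were called lower, against 31%, 19.8% and 14%. Their median log2 differences at the 3 steps were -1.12, -0.80 and -0.17. Tyrobp, the adapter DAP12 through which TREM2 signals, was 34.2, 35.8 and 27 TPM at E12.5, 18.9, 18 and 16.4 at P0, 7.38, 11.7 and 9.36 at P14, and 6.21 and 6.93 in A6m replicates 1 and 2, with a mean of 8.53 ± 3.41 over the 3 A6m libraries because replicate 3 was higher. Its first 2 steps (-0.82 and -0.86, limma adjusted p = 0.0081 and 0.00723) were not called after scaling (adjusted p = 0.0903 and 0.256), whereas from E12.5 to A6m it fell on both scales (-1.85 and -1.05, adjusted p = 1.52e-05 and 0.00327). Fcer1g, the common Fc receptor gamma chain, fell from 34.7 ± 10.6 to 13.9 ± 1.82 TPM at P0 (-1.22, adjusted p = 0.000246) and Syk, the kinase it recruits, from 6.46 ± 0.497 to 1.29 ± 0.214 TPM (-1.71, adjusted p = 3.15e-07).

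Of 12 transcription factors of the macrophage lineage, 8 fell and 3 rose from E12.5 to P0, 11 fell from P0 to P14, and 1 fell and 4 rose from P14 to A6m. The backgrounds were 43.7% lower and 18.6% higher, 53.5% lower, and 12.1% lower and 8.78% higher. With scaling 5, 5 and 2 of the 12 were called lower at these steps, against 31%, 19.8% and 14% of tested genes. Spi1, which encodes PU.1, was 9.79, 12.6 and 6.57 TPM at E12.5, 3.07, 7.04 and 3.49 at P0, 1.3, 1.23 and 1.49 at P14, and 1.37, 1.75 and 2.67 at A6m. P0 replicate 2 lay above the lowest E12.5 library. The difference at birth (-0.97, limma adjusted p = 0.0104) was not called after scaling (-0.71, adjusted p = 0.0519), and that from P14 to A6m was 0.30 (adjusted p = 0.517). Zeb2, a zinc finger repressor, fell from 38 ± 8.36 to 9.8 ± 0.663 TPM at P0 (-1.83, adjusted p = 1.78e-05).

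A list of 16 general macrophage and leukocyte markers had 5 members that fell and 3 that rose from E12.5 to P0, 14 that fell from P0 to P14, and 4 that fell and 1 that rose from P14 to A6m (backgrounds 43.7% lower and 18.6% higher, 53.5% lower, and 12.1% lower and 8.78% higher). With scaling 2 were called lower and 3 higher at the first step, 11 lower and 1 higher at the second, and 4 lower and 2 higher at the third. Of all tested genes 31%, 19.8% and 14% were called lower with scaling at these steps, and 29%, 22.7% and 15.2% higher. Adgre1, which encodes F4/80, was 9.82, 9.65 and 8.78 TPM at E12.5, 4.68, 3.91 and 3.17 at P0, 2.43, 2.92 and 2.94 at P14, and 1.46, 1.11 and 1.88 at A6m. It fell at birth (-1.09, limma adjusted p = 6.29e-05) and from E12.5 to A6m (-2.08, adjusted p = 1.59e-07), on both scales. Its difference from P0 to P14 (-0.38, adjusted p = 0.0424) had a value of 0.02 after scaling (adjusted p = 0.953) and was lost when any 1 of 7 libraries was left out: E12.5 replicate 2, P0 replicates 1 and 2, the 3 P14 replicates or A6m replicate 1 (adjusted p = 0.0523, 0.156, 0.0906, 0.132, 0.0677, 0.0632 and 0.0561). From P14 to A6m it fell (-0.60, adjusted p = 0.013), a call lost without A6m replicate 2 (adjusted p = 0.0519).

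Ptprc, the pan-leukocyte antigen CD45, showed no called difference at birth, like the C1q genes. It was 4.02, 4.66 and 3.16 TPM at E12.5, 2.96, 4.09 and 4.13 at P0, 1.23, 0.863 and 1.39 at P14, and 1.75, 1.21 and 1.9 at A6m. The difference from E12.5 to P0 was -0.06 (limma adjusted p = 0.765), and from P0 to P14 it fell (-1.13, adjusted p = 0.000276). Lyz2, a lysozyme of macrophages and neutrophils, rose from 15.5 ± 6.12 TPM at P14 to 37.7 ± 8.08 at A6m (1.28, adjusted p = 0.0032), while Csf1r fell in the same libraries. Neutrophil markers were uneven across the libraries: the summed TPM of 10 neutrophil markers was 2.19 to 8.18 at E12.5, 94.9 to 114 at P0 and 1.02 to 1.72 at A6m, and at P14 it was 4.85, 8.1 and 83. In P14 replicate 3, which held the 83, the 10 macrophage genes summed to 50.1 TPM, between the 48.4 and 51.2 of the other two. Markers of other immune cells were low: 6 dendritic cell markers summed to 6.28 to 7.76, 3.85 to 5.16, 1.84 to 2.15 and 1.92 to 2.32 TPM at the 4 ages. In the same order 5 mast cell markers summed to 0.695 to 0.83, 4.83 to 12.6, 2.85 to 4.99 and 0.634 to 0.727 TPM, highest at P0. The 11 lymphocyte markers summed to 3.25 to 3.83, 2.21 to 3.47, 1.19 to 1.24 and 0.593 to 1.76 TPM.

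Of 11 further scavenger markers of macrophages at the borders of the brain, 7 entered the tests and all 7 fell from E12.5 to A6m, with a median log2 difference of -1.73, where 62% of tested genes were called lower and the median of all was -0.71. With scaling 6 of the 7 were called lower (35.8% of tested genes) and their median was -1.33. Clec10a, counted here, reached 1 TPM only at E12.5 (1.58, 1.78 and 1.26 TPM), so a fall from that age was built into its being tested. Fcna and Ccl24 reached 1 TPM only at E12.5 and P0. Pf4, shared by these macrophages and platelets, was 198, 124 and 135 TPM at E12.5, 26.5, 28.7 and 21.6 at P0, 5.9, 7.96 and 8 at P14, and 0.998, 1.1 and 2.1 at A6m, and fell at each step (limma adjusted p = 2.17e-06, 9.39e-05 and 0.000172). Stab1, an endocytic receptor also made by endothelium, fell from 33.5 ± 2.42 TPM at E12.5 to 7.09 ± 0.472 at P0 (log2 difference -2.09, adjusted p = 7.08e-06) and 1.11 ± 0.706 at A6m. Marco was listed at 0 in all P14 and A6m libraries and Ccl24 in all A6m libraries.

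Microglia, the macrophages of the brain tissue itself, share Csf1r, Cx3cr1, Aif1 and the C1q genes with those of the choroid plexus. Of 10 microglia markers 9 entered the tests, of which 6 fell and 1 rose from E12.5 to P0 and 8 fell and 1 rose from E12.5 to A6m. The backgrounds were 43.7% lower and 18.6% higher for the first and 62% lower and 15.2% higher for the second. With scaling 5 were called lower and 2 higher, and 7 lower and 1 higher. The backgrounds with scaling were 31% lower and 29% higher, and 35.8% lower and 35.4% higher. Slc2a5, among those called lower, reached 1 TPM only at E12.5 (1.45, 1.24 and 1.52 TPM). Siglech, also called lower, reached it at E12.5 (2.92, 2.41 and 2.31 TPM) and in P0 replicate 1 (1.07 TPM). Neither would have passed the filter without E12.5, so their falls were built into their being tested. Tmem119 was 17.6, 16.2 and 11.1 TPM at E12.5, 5.23, 4.05 and 4.42 at P0, 2.38, 1.81 and 2.26 at P14, and 0.927, 0.919 and 1.66 at A6m. Fcrls fell from 8.12, 9.62 and 10.6 TPM at P14 to 0.69, 1.33 and 1.88 at A6m (log2 difference -2.21). The summed TPM of the list, which holds genes also made outside microglia, was 102 to 124, 89.9 to 93.1, 72.8 to 78.5 and 62.7 to 75.4 at the 4 ages. The part of microglia in the values of the shared genes was not tested.

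**Figure D4:**
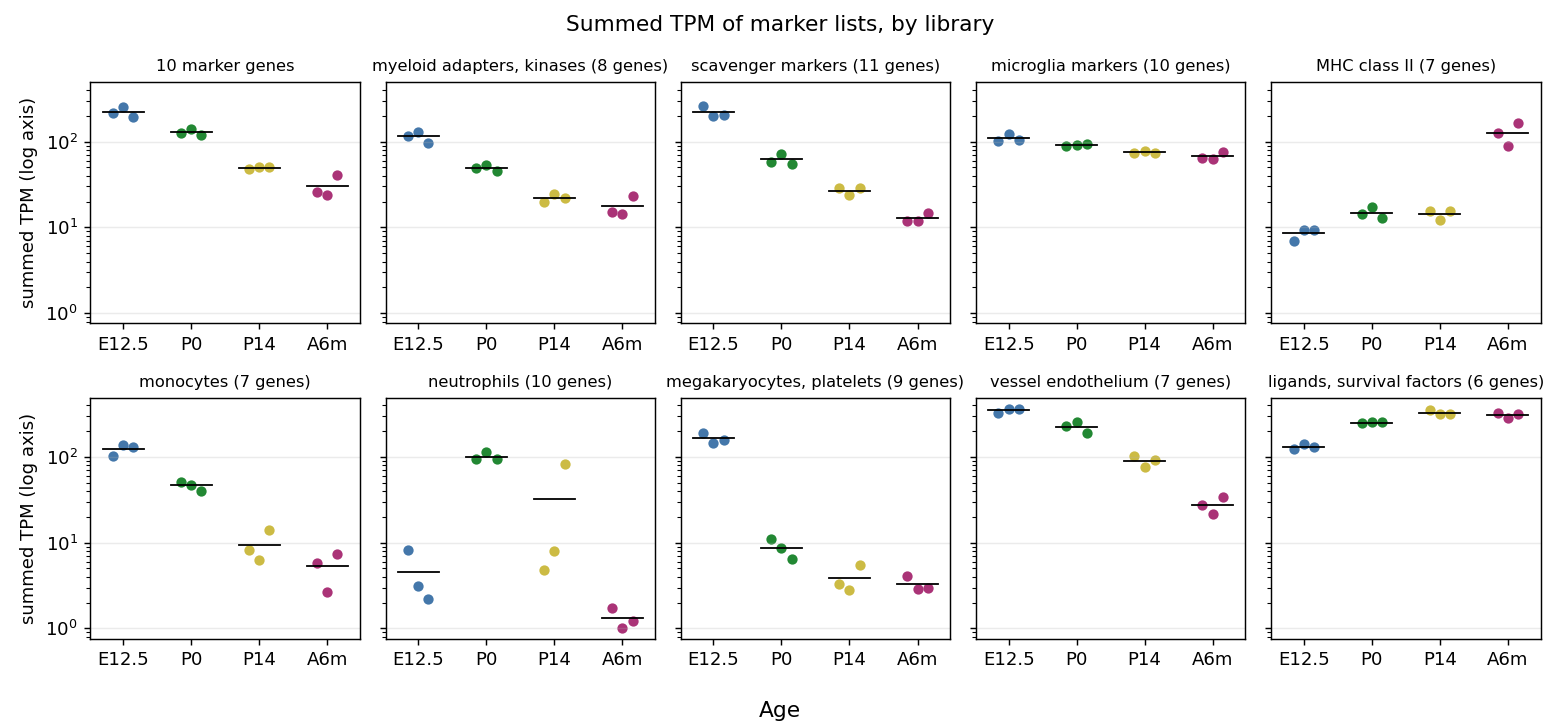
Summed TPM of the 10 marker genes and of 9 lists of other genes in each library (points, log axis) by age, with means as lines. The 10 genes, the adapters and the scavenger markers descend with age, the MHC class II genes are highest at A6m, and the neutrophil markers are high at P0 and in 1 of the 3 P14 libraries (83 TPM).

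The genes of MHC class II, which present antigen on a subset of macrophages and on dendritic cells, went the other way at A6m. Of the 6 tested, 5 rose from P14 to A6m and none fell, with and without scaling. H2-Aa, counted here, reached 1 TPM outside A6m only in P0 replicates 1 and 2 (1.3 and 1.58 TPM). It passed the filter only through A6m, so its rise to that age was built into its being tested. Among all tested genes 8.78% were called higher as deposited and 15.2% with scaling. Cd74, the invariant chain, was 2.73, 1.9 and 2.58 TPM at P14 and 41.7, 26.7 and 55.4 at A6m, while Csf1r fell. Of the 8 complement genes listed as partners or regulators of C1q, 6 rose and none fell from E12.5 to P0, the step at which no C1q gene was called. These counts were the same with scaling. Among all tested genes 18.6% were called higher and 43.7% lower as deposited, and 29% higher and 31% lower with scaling. C1ra, a protease of the C1 complex, rose from 0.943 ± 0.337 to 4.72 ± 0.174 TPM at that step (log2 difference 1.57, limma adjusted p = 3.29e-06).

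Of the 3 adult libraries, replicate 3 was the highest in 8 of the 10 genes and replicate 2 the lowest in 8. Replicate 3 was also the highest of its age in the summed TPM of the adapters (23.2 against 15.2 and 14.4), of MHC class II (164 against 125 and 88.8), of blood vessel endothelium (34 against 27.7 and 21.6) and of monocyte markers (7.44 against 5.8 and 2.67). The same library was the highest of its age in the summed TPM of 8 erythroid markers (564 against 332 and 149). Over the other ages these summed to 55600 to 62700 at E12.5, 6650 to 13500 at P0 and 777 to 909 at P14, and their part in the values was not tested. At E12.5 replicate 2 was the highest in 7 of the 10 genes and replicate 3 the lowest in 7. The 10 genes thus moved in part together within an age, and what this shares with the makeup of each dissection was not tested.

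Likeness of profiles was measured as the root mean square distance between log2(TPM + 1) profiles over the 12 libraries, each centred on its mean over ages, among 11674 genes. The nearest genes to Csf1r were Ssr2 (0.13), S1pr1, Ccdc8, Cdon and Scarf2 (0.14 each), against a median of 0.82 over all candidates. For Cd163 they were Pmel (0.16), Cntd1 (0.20), Rnaset2a (0.22), Fzd5 (0.22) and Pde1a (0.23), against 0.79. For the mean profile of the 3 C1q genes they were Cd53 (0.15), a leukocyte tetraspanin, Ubald2 (0.16), and Selenop, Gpr161 and Ccdc3 (0.18 each), against 0.60. Within the set C1qb and C1qc were the closest pair (0.20) and Cd163 and F13a1 the most distant (1.98).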

How the data were processed

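Choroid plexus RNA of 12 libraries (3 per age) was analysed. The deposited values are TPM per gene symbol, which the authors made with kallisto on GRCm38, per the submitters' processing notes. Per the labels' protocols, libraries came from Trizol-extracted RNA with a Kapa mRNA HyperPrep kit. The kallisto version, the annotation and how transcripts were summed to genes are not given in the sources used here. Read numbers cannot be had from TPM: depth is unknown, and neither counting intervals nor detection floors are given. Because TPM has a fixed total, more of an abundant transcript means lower values of all others. The table has 7 further columns that were not used.

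Genes with at least 1 TPM in at least 3 of 12 libraries (17422) were tested on log2(TPM + 1) with limma 3.58.1 in R 4.3.3 (eBayes with trend, 4 group means, 8 residual degrees of freedom), with p adjusted by Benjamini-Hochberg over all genes tested and a threshold of 0.05. A second fit subtracted each library's Csf1r value. The script was tested on simulated data. Coordinates came from GENCODE M21 and promoters from RefSeq. Figures were drawn with matplotlib 3.10.9. All 10 members were named in each account. Of other lists the text named part of the called genes with the largest differences and at least 5 TPM at the higher age, beside Csf1, Il34, Cx3cl1, Tyrobp, Spi1, Ptprc and Adgre1 throughout. Xist, Ddx3y, Mir6236, Prox1, Marco, Ccl24 and Vcan were named after their values were seen, as were genes named for how they passed the filter. The members, the lists and the tests were chosen with earlier results of these data known. Alternatives were median-of-ratios scaling (19075 genes), quantile normalization, removal of the 10 most abundant genes, other pseudocounts (0.1 and 5), testing all genes or those with a mean of 5 TPM or more, fitting only a comparison's own 6 libraries, limma's array weights, a replicate block and leaving out each library. For genes and lists other than the 10 they were added after the data were seen. Some listed genes are not reported here.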

Additional observations from a re-analysis of the deposited data

How the results depend on the processing

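Of the counts of called marker genes, those of P14 to A6m changed most: 2 of 10 were called with a pseudocount of 5 (6 with 1), and relative to Csf1r 2 of 9 with a reference of 4 genes (6 with Csf1r alone). Leaving out 1 library gave 6 to 7 calls from E12.5 to P0, 9 to 10 from P0 to P14, 4 to 7 from P14 to A6m, and 10, 10 and 9 in the comparisons of P14 with E12.5, A6m with P0 and A6m with E12.5. The low of 4 came without P14 replicate 2, A6m replicate 1 or A6m replicate 2. Relative to Csf1r the ranges in the same order were 6 to 8, 2 to 3, 6 to 7, 7 to 9, 6 and 9. The cause of these changes was not tested.

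The sign turned for the following, among them differences that were called as reported: Cx3cl1 (-0.43) and Adgre1 (-0.38) from P0 to P14, Ptprc (-0.91) from E12.5 to A6m, and, relative to Csf1r, Lyve1 (-0.79), Cx3cr1 (0.71) and C1qc (0.67) from E12.5 to A6m. From E12.5 to P0 C1qc was 0.0236 with scaling, 0.0328 without the 10 most abundant genes and 0.0316 with quantile normalization, and Ptprc was 0.15, 0.178 and 0.227 in the same order, 0.0396 without E12.5 replicate 2 and 0.0589 without P0 replicate 1 (-0.183 to 0.0589 with each library left out). Cx3cr1 relative to Csf1r was 0.0436 with a pseudocount of 5 and 0.00826 without P0 replicate 1 (-0.179 to 0.00826 with each library left out). From P0 to P14 Cx3cl1 was 0.0704 with scaling, and Adgre1 was 0.0151 with scaling and 0.178 with quantile normalization. From P14 to A6m Csf1 was 0.0188 without A6m replicate 2 and Tyrobp 0.000702 without A6m replicate 1 (-0.167 to 0.0188 and -0.449 to 0.000702 with each library left out). From E12.5 to A6m quantile normalization gave 0.199 for Cd163 and 0.0311 for Ptprc. Relative to Csf1r, Lyve1 was 0.257 with a pseudocount of 5, and with the reference of 4 genes Cx3cr1 was -0.0397 and C1qc -0.0803.

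Replicate numbers did not pair the libraries: the correlation of deviations from the age means was -0.078 to 0.108 over 18 same-numbered pairs of libraries, and 3 of 12 libraries were closest to their own number. With the replicate block the counts of called marker genes stayed at 6, 10, 6, 10, 10 and 9 in the 6 comparisons, in the order above, and the count relative to Csf1r from E12.5 to P14 was 8 in place of 9. Adgre1 from P0 to P14 (adjusted p = 0.0705) and Cx3cl1 from E12.5 to A6m (adjusted p = 0.0695, against 0.0417 without it) were not called with it.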
